A study of Mus musculus with 2 samples.

Results

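Among the open chromatin regions of mouse bone marrow-derived mast cells, 1085 of 23364 lay at the end of a protein-coding gene and were called in the wild-type library and not in the Dnmt3a knockout library. They were chosen by measured values. The peak intervals of both libraries were merged wherever they shared at least 1 bp on chromosomes 1 to 19 and X, and a merged region was kept if it held a wild-type peak and no knockout peak and stood no farther than 1 kb from an end of a protein-coding gene interval of mm10. All gene-end regions numbered 8341, of which 1085 were wild-type-only, 1617 knockout-only and 5639 shared. The wild-type-only share was 13.0% at gene ends and 16.9% over all 23364 regions. The rule fixes the presence of a wild-type peak, the lack of a knockout peak and the distance to a gene, so that none of these is a result. Peak strength bears on whether a second library also calls a peak, and is therefore given as a description.

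The assay was ATAC-seq, in which the transposase Tn5 cuts and tags accessible DNA. The libraries were 1 from mast cells of mice lacking Dnmt3a (DNMT3A-KO in the labels) and 1 from wild-type littermates, females in both cases and 3 to 4 weeks old. Marrow cells had been grown for 4 weeks with interleukin 3, over 95% carried Kit and the IgE receptor chain FcεRIα on the surface, and no stimulus was given. Nuclei had been freed with 0.1% Igepal, and the stated sequencing was 10 M single reads of 50 bp per library. The deletion allele, the Cre driver if any, and the number of animals behind each culture are not given in the labels, and a single culture stands for each genotype. A difference between the libraries therefore cannot be told apart from a difference between 2 cultures, 2 preparations or 2 sequencing depths, and no test between genotypes was made.

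Most genes begin at a promoter, a stretch of DNA just before and over the transcription start that is held free of nucleosomes when general transcription factors and RNA polymerase bind. In mammals many promoters lie in CpG islands, which usually stay unmethylated, and others are CpG-poor and are used in fewer cell types. Dnmt3a is a de novo DNA methyltransferase, an enzyme that places new methyl groups on CpG sites. Mast cells are the granule-filled, IgE-binding effector cells of allergy, and the genes for their receptor and granule proteases are used in few other cells. Methylation and RNA were not part of these data.

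The knockout list held 19684 peaks and the wild-type list 17170. The lists give no read totals. The depth behind each call is shown by the summit pileup, the number of overlapping fragments at the highest point of a peak, whose median was 9 in the knockout and 9 in the wild-type list and whose lowest value was 3 in both. Of 9 mast cell markers, 7 had a knockout and 8 a wild-type peak in the gene or within 1 kb of it. Fcer1a and Cma1 had no knockout peak there. Each of the 9 had a peak in at least 1 list, so the marker without a wild-type peak had a knockout peak. Fcer1a and Cma1 both hold a region of the set described here, so these counts are not independent of the rule. The knockout and wild-type numbers were 1 and 0 of 8 neutrophil and monocyte markers and 2 and 1 of 6 lymphocyte markers. They were 1 and 1 of 3 basophil markers and 2 and 1 of 5 erythroid and megakaryocyte markers. Among those with none in either list were Elane, Mpo, Ltf, Lcn2, S100a8, S100a9, Cd14, Cd79a, Cd8a, Klrb1c, Mcpt8, Prss34, Alas2 and Pf4. Dnmt3a itself (chr12:3801559-3914443) had no region of any class at either end.

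The promoters on which the descriptions below turn are shown first. The windows run from 250 bases before to 50 bases after a RefSeq transcription start (GRCm38.p6, the build that mm10 names), 5′ to 3′ along the gene, and capitals mark the bases inside the wild-type-only region. Dennd1c, Klhl11 and Cptp are shown because their regions were among the 10 strongest. Fcer1a, Cpa3 and Cma1 are the mast cell effector genes with such a region, and Fos and Vav1 lead the lists of inflammatory transcription factors and of IgE receptor signalling.
Dennd1c, chr17:57078449-57078748, minus strand: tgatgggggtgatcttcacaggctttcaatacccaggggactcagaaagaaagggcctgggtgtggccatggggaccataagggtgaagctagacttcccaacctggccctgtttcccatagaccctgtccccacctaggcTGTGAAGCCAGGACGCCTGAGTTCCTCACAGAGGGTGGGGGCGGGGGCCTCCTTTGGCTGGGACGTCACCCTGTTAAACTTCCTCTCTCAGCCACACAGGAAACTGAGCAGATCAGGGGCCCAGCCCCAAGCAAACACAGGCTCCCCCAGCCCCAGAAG
Klhl11, chr11:100472733-100473032, minus strand: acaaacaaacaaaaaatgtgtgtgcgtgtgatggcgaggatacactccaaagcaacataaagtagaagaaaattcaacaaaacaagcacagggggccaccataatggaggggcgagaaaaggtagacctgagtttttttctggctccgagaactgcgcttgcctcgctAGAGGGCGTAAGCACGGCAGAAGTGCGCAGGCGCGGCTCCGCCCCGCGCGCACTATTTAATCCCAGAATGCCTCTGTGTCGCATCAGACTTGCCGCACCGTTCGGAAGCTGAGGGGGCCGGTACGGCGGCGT
Cptp, chr4:155869391-155869690, minus strand: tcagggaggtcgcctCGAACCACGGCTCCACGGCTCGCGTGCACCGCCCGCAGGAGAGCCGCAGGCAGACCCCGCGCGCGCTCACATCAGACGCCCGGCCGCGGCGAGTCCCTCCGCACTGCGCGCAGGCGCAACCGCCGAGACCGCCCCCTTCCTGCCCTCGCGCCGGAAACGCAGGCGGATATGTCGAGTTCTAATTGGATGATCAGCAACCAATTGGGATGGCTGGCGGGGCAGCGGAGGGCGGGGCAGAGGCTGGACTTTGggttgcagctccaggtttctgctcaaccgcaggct
Fcer1a, chr1:173227180-173227479, minus strand: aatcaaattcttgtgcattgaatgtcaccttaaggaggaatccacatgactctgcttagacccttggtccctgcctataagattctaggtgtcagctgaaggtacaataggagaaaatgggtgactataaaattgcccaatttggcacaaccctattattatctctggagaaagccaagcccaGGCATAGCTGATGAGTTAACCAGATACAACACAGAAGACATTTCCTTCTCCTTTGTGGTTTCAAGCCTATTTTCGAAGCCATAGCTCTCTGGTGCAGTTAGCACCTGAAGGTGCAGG
Cpa3, chr3:20242132-20242431, minus strand: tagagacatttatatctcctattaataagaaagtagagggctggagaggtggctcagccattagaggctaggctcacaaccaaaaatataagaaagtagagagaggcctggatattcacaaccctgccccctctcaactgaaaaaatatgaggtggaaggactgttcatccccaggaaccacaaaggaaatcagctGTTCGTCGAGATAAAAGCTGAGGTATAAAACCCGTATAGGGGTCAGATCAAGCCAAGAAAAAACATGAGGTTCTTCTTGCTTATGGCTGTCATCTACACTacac
Cma1, chr14:55944626-55944925, minus strand: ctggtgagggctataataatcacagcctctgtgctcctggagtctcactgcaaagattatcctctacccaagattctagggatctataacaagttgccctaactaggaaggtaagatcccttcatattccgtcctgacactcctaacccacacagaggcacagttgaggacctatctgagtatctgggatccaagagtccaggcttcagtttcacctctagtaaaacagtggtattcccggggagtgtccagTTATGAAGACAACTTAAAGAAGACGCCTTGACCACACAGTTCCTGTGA
Fos, chr12:85473640-85473939, plus strand: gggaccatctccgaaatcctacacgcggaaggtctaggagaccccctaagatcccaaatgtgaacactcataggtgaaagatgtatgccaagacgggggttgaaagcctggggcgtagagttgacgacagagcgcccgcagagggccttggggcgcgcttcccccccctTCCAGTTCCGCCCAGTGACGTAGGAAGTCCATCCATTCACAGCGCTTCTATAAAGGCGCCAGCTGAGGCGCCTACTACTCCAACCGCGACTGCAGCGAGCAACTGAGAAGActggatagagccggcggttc
Vav1, chr17:57278850-57279149, plus strand: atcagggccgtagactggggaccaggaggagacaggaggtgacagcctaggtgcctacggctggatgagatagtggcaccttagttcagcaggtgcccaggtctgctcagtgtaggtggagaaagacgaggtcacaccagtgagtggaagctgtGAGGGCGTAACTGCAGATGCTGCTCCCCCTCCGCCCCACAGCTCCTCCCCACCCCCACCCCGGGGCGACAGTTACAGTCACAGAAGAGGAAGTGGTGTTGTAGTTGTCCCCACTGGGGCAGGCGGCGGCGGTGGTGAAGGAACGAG

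The windows fell into CpG-rich and CpG-poor ones. The ratio of observed to expected CpG was 1.03 at Klhl11, 0.980 at Cptp and 0.775 at Fos, and it was 0.394 at Vav1, 0.213 at Cpa3, 0.183 at Cma1, 0.112 at Dennd1c and 0.0700 at Fcer1a. All 3 windows of mast cell effector genes were therefore among the CpG-poor. The wild-type-only region covered 250 of 300 bases at Cptp, with 33 of its 35 CpG sites, and 48 bases at Cma1, with 1 of 3. Within the capitals the GC box GGGCGG stood, on either strand, in Dennd1c, Klhl11, Cptp, Fos and Vav1. The TATA word TATAAA stood within the capitals of Cpa3 and Fos, and AGATAA, the word that GATA factors bind, within those of Cpa3. A word in a window is a match of letters and no measured site.

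Wild-type-only gene-end regions were weak peaks. Strength is given by the authors' −log10 q, where q is the peak caller's p-value adjusted for the number of tests, and by their fold enrichment of the summit over local background. The members' −log10 q ran from 3.05 over a median of 6.03 to 18.3, and the fold from 4.22 over 6.19 to 12.7. Their summits held 4 to 22 fragments with a median of 7. Knockout-only regions at gene ends had a median −log10 q of 6.54 in the knockout list and reached 25.1. Shared ones had medians of 13.0 in the knockout and 11.2 in the wild-type list. By strength the members ranked between 1866 and 17166 of the 17170 wild-type peaks, with a median rank of 13039, and 155 of them (14.3%) were in the stronger part above the list's median. They were also narrow, with a median width of 111 bp against 118 bp for knockout-only and 241 bp for shared regions. A shared region is a union of peaks from both lists, which widens it.

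**Figure D1:**
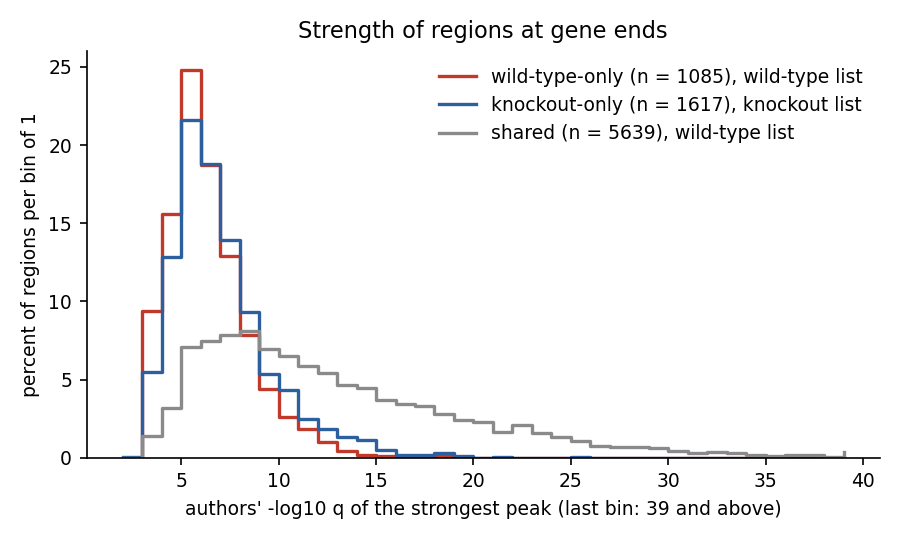
Distribution of the authors' −log10 q of the strongest peak (x axis) over gene-end regions of each class (y axis, percent of the class per bin of 1). Wild-type-only regions (n = 1085) peak between 5 and 6 with a median of 6.03, knockout-only regions (n = 1617) have a median of 6.54 in the knockout list, and shared regions (n = 5639) spread to higher values with a median of 11.2 in the wild-type list.

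How often a wild-type gene-end peak lacked a knockout counterpart fell steadily with its strength. The wild-type list was divided into 10 equal classes by −log10 q. In the weakest class, 252 of 534 gene-end peaks were wild-type-only (47.2%, exact Clopper-Pearson 95% interval 42.9 to 51.5, covering counting error only, as do all intervals below). In the fifth class it was 122 of 632 (19.3%, 16.3 to 22.6), and in the eighth 21 of 788 (2.66%, 1.66 to 4.04). In the strongest class 0 of 1016 were wild-type-only, with an interval of up to 0.362%. At a −log10 q of at least 10 there were 69 wild-type-only and 203 knockout-only gene-end regions, and at 15 or more 3 and 23, each limit taken in the list that held the region. For each wild-type-only region there were 1.49 knockout-only ones over all gene ends, 2.94 at 10 or more and 7.67 at 15 or more. The last value rests on 3 wild-type-only regions. One limit is also not alike in both lists. Of the shared gene-end regions, 66.8% reached 10 in the knockout list and 57.9% in the wild-type list. For 15 the shares were 40.6% and 30.9%, so these values do not compare regions of equal strength. With the knockout list cut to its strongest 17170 peaks, the overall value of 1.49 turned to 0.923. That cut removes knockout peaks only, so the value falls by construction. With a limit of 5 or more it was 1.62, and what sets the order of the classes was not tested.

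**Figure D2:**
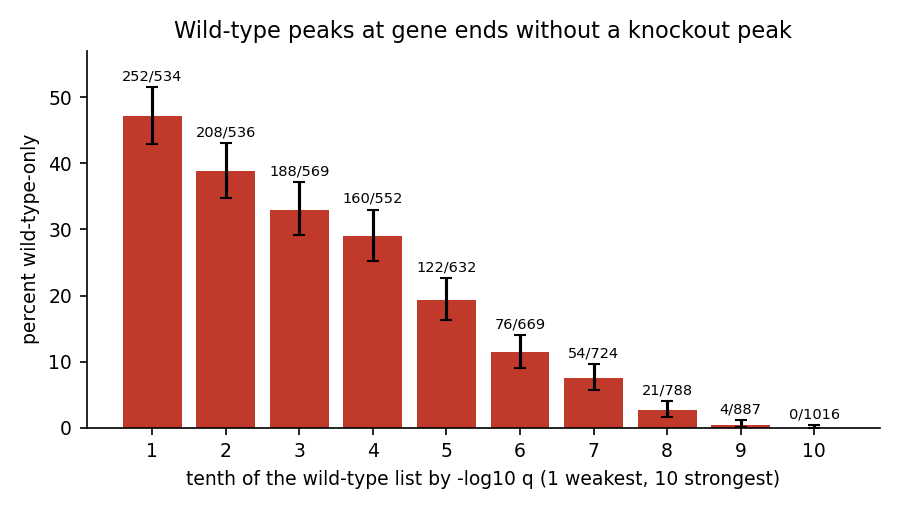
Share of wild-type gene-end peaks that were wild-type-only (y axis, percent, with exact 95% intervals) in 10 equal classes of the wild-type list from weakest to strongest (x axis). The share falls from class to class, being 47.2% in class 1 and 0 of 1016 in class 10, and the numbers above the bars are wild-type-only over all gene-end peaks of the class.

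The 10 strongest regions lay at the ends of genes of unlike function, 9 of them with no shared or knockout-only region at the same gene end. The strongest covered the transcription start of Dennd1c, which encodes an exchange factor for Rab GTPases (gene 70785, chr17:57066051-57078529, minus strand). It spanned chr17:57078448-57078607 with a −log10 q of 18.3, a fold of 12.7 and 16 fragments at the summit, 32 bp before the start. The nearest knockout peak was 17659 bp away. The next was a region 560 bp inside the gene interval of Tspan31, a tetraspanin gene (chr10:127070246-127070412, −log10 q 16.2, 15 fragments). Its summit lay 67 bp before a listed transcription start of that gene. After it came a region over the start of Klhl11, which encodes a kelch-type adaptor of cullin ligases (chr11:100472731-100472864, 15.4, 12 fragments, 46566 bp from a knockout peak). No other member reached a −log10 q of 15.

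Of the remaining 7, 4 touched the ends of 2 genes at once. The region at Iqck and Knop1 (chr7:118855667-118855841, −log10 q 14.4) covered a gene end, as did that at Fbxw2, an F-box gene, and Gm34653 (chr2:34826156-34826308, 14.2). The region of Cptp, a ceramide-1-phosphate transfer protein gene, covered its start and that of Ints11, which encodes the nuclease subunit of the Integrator complex (chr4:155869426-155869675, 13.2). That of Cpsf7, a gene for pre-mRNA 3′ processing, and Sdhaf2, an assembly factor of succinate dehydrogenase, lay 186 bp inside a gene end (chr19:10525409-10525598, 13.5). Aprt, the purine salvage enzyme gene, had a region over its start (chr8:122576847-122576979, 13.8). Csf1, the gene of macrophage colony-stimulating factor, had one 6 bp inside its start (chr3:107760188-107760463, 13.2), with 36239 bp to the nearest knockout peak. Phf12, a PHD finger gene, was the exception to the lack of company: its region (chr11:77982449-77982670, 14.0) stood outside the gene beside a shared region, 453 bp from a knockout peak.

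At the other end of the range, the 3 weakest members lay at Gxylt1 (−log10 q 3.05, 7 fragments over a local background of 0.720), Ehbp1 (3.19) and Acadl (3.19). All 3 had a knockout peak close by, 117, 6 and 25 bp away. At the 1 kb limit, the farthest region kept lay inside Tnfrsf11b, 997 bp from its lower end, the osteoprotegerin gene (−log10 q 5.88), and the nearest one left out lay 1001 bp from Macir (3.35).

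The members were start-side regions in nearly all cases where a strand was known. The gene table has no strand, which came from the RefSeq promoter windows for 839 of the 1085. At 787 of these the nearest gene end was the start-side one (93.8%, 92.0 to 95.3), compared with 90.3% (88.6 to 91.9) of knockout-only and 96.7% (96.1 to 97.2) of shared regions. That end is itself a listed transcription start for 10370 of the 17274 coding genes with a promoter window. Where a region of a named gene is placed by its start, this end is meant, except for summits, which are set against listed starts. The members' place around the nearest gene end differed from that of shared regions. Of the members, 36.7% covered the nearest gene end, 38.2% lay wholly inside the gene and 25.1% outside, against 39.6%, 35.3% and 25.1% of knockout-only regions and 68.9%, 17.1% and 14.0% of shared ones. The gene intervals do not resolve exons, introns or UTRs.

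The same split was seen in the summits. Of 775 members with a summit within 1 kb of a listed start, 37.8% (34.4 to 41.3) had it downstream of the start, against 36.0% (33.3 to 38.9) of 1154 knockout-only and 22.9% (21.6 to 24.1) of 4485 shared regions. More than 250 bp downstream were 11.9%, 9.45% and 4.95%. Median summit positions were 30 bp before the start for members, 27 bp before it for knockout-only and 58 bp before it for shared regions. In the downstream shares, members and knockout-only regions thus had overlapping intervals, and both lay apart from shared regions.

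Part of the contrast with shared regions went along with strength. In a comparison added after the data were seen, only regions whose strongest wild-type peak had a −log10 q between 5.0 and 7.40, the members' quartiles, were used. The median pileup was then 7 in both classes. Summits lay downstream of the start in 37.6% of members (32.7 to 42.7) and 35.2% of shared regions (31.8 to 38.7), intervals that overlap. More than 100 bp downstream were 20.3% (16.3 to 24.7) and 13.3% (10.9 to 15.9). The share covering the gene end was still 33.4% and 58.6%, where the widths also differed, with medians of 108 and 180 bp.

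**Figure D3:**
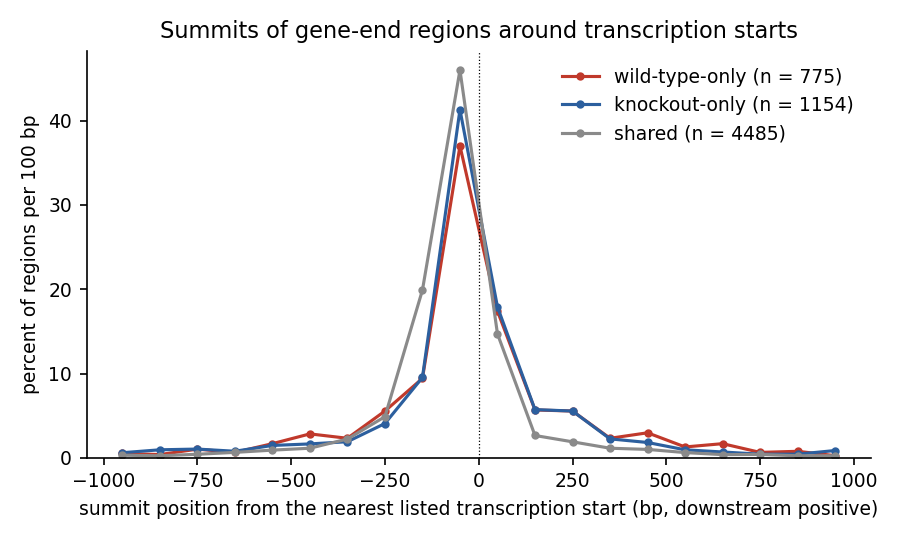
Position of region summits relative to the nearest listed transcription start (x axis, bp, downstream positive) as a percent of each class per 100 bp (y axis). Wild-type-only (n = 775) and knockout-only (n = 1154) profiles nearly coincide, while shared summits (n = 4485) sit more often in the 200 bp before the start and less often downstream of it (22.9%, against 37.8% of wild-type-only regions).

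Lack of a knockout peak at the same bases did not mean lack of a knockout peak nearby. A knockout peak lay within 200 bp of 241 members (22.2%, 19.8 to 24.8) and within 1 kb of 368 (33.9%, 31.1 to 36.8). For wild-type-only regions inside genes the shares were 9.67% (8.29 to 11.2) and 15.5% (13.8 to 17.4), and for those between genes 8.83% (7.30 to 10.6) and 11.9% (10.2 to 13.9). The median distance was 9543 bp for members, 13234 bp for regions inside genes and 15918 bp between genes. Seen from the other side, 24.2% (22.2 to 26.4) of knockout-only gene-end regions had a wild-type peak within 1 kb.

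**Figure D4:**
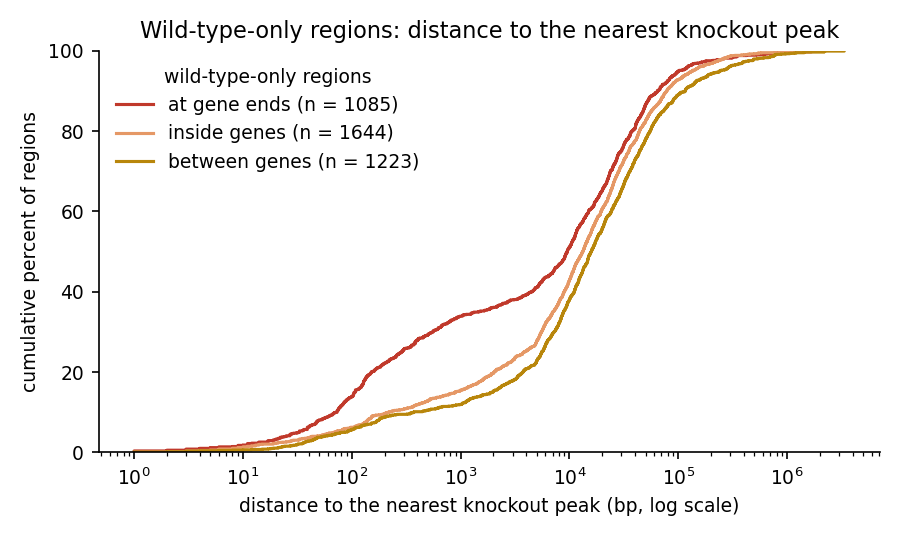
Cumulative percent of wild-type-only regions (y axis) by distance to the nearest knockout peak (x axis, bp, log scale). The curve of the 1085 gene-end regions runs above those inside genes (n = 1644) and between genes (n = 1223) from about 100 bp on, reaching 33.9% at 1 kb against 15.5% and 11.9%, and the 3 curves draw closer beyond 10 kb.

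At the same gene end, 240 members (22.1%) had a shared region, 136 (12.5%) a knockout-only region and 14 of these both. Neither was found at the end of 723 members (66.6%, 63.7 to 69.4), compared with 76.0% (73.8 to 78.1) of knockout-only regions with neither a shared nor a wild-type-only neighbour. Of the 5 members of a −log10 q of at least 5 that were nearest to a knockout peak, 4 had one that began or ended at the very next base, at Noa1 and Polr2b, Pcbp1, Prdx1, and Erp29 and Tmem116. At Noa1 and Polr2b, a gene of the second largest RNA polymerase II subunit, the wild-type-only region chr5:77310032-77310131 (−log10 q 7.05) was followed at once by the knockout-only region chr5:77310132-77310231 (4.70 in the knockout list). At Prdx1, a peroxiredoxin gene, a wild-type-only region of 9.20 met a knockout-only one of 3.58.

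Other members lay beside a shared region at the same promoter. At Ctsd, the gene of the lysosomal protease cathepsin D, the member (chr7:142387842-142387956, −log10 q 8.03) was separated by 2 bp from a shared region that reached 7.67 in the knockout and 5.82 in the wild-type list. At Pcna, the replication clamp gene, a member 369 bp inside the gene (7.44) stood beside a shared region over the start with 29.9 in the knockout and 26.4 in the wild-type list. At Ung, which encodes the uracil excision enzyme of DNA repair, the member and the shared region 354 bp inside the gene both had 11.2 in the wild-type list, and the shared one had 10.9 in the knockout list. These gene ends had called regions in both libraries.

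The reverse also occurred. The 5 members of a −log10 q of at least 5 that lay farthest from any knockout peak were those of Zik1 (1968 kb), Adgra3 (1727 kb), Trim32 (1662 kb), Dmac1 (1026 kb) and Tnfrsf11b (833 kb). They were weak, with 5 to 7 fragments at the summit and −log10 q values of 5.20 to 7.59. Zik1 encodes a zinc finger protein and Trim32 a ubiquitin ligase.

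Counted by gene, 1223 of the 8304 protein-coding genes with any region at an end had a wild-type-only one, since 195 regions touched the ends of 2 or more genes. Of these genes, 486 had a knockout peak at one of their ends and 670 had one in the gene or within 1 kb. The other 553 (45.2%) had none. Members at more than 1 end or site of a gene were rare: 61 genes had 2, none had more, and in 56 of the 61 the pair lay within 1 kb at the same end. Tmem259 had regions of 8.74 and 10.7, 733 bp apart. At Chek1, the checkpoint kinase gene, regions of 5.64 and 6.99 lay side by side just outside the start, at least 40725 bp from a knockout peak. Ppia, the cyclophilin A gene, had 6.63 before and 6.57 after its start, at least 26235 bp from a knockout peak. Ifnar2, an interferon receptor gene, and Ppp1r3b, a glycogen-targeting phosphatase subunit gene, had pairs over 10 kb apart, and so at opposite ends.

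The members were spread over all chromosomes. Their share of gene-end regions ran from 8.87% on chromosome 10 (37 regions) to 16.7% on chromosome 17 (69 regions, interval 13.3 to 20.7), and knockout-only regions were more numerous on 19 of 20 chromosomes. The exception was chromosome 17, with 67 knockout-only regions. The longest runs of members with no other gene-end region between them held 4. One ran over 59.6 kb of chromosome 15 across Tigd5 and Eef1d, Pycrl, Zfp623 and Zfp707. Another ran over 214 kb of chromosome 17 from Prrc2a to the histocompatibility genes H2-D1 and H2-Q4, and the third over 82.8 kb of chromosome 4 across Prxl2b, Tnfrsf14 and Pank4.

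At mast cell effector genes, 3 of 14 gene-end regions were wild-type-only (21.4%, 4.66 to 50.8), 3 knockout-only and 8 shared, over 21 listed genes of which 13 had any. The share over all genes, 13.0%, lies within that interval. The 3 were at the genes of the IgE receptor alpha chain and of granule proteases. Fcer1a (gene 14125, chr1:173221269-173227232) had a region over its start at chr1:173227141-173227296 with a −log10 q of 9.67, a fold of 8.33 and 12 fragments, and the nearest knockout peak was 10487 bp away. Cpa3, the mast cell carboxypeptidase gene, had one over its start (chr3:20242136-20242235) with 5.28, a fold of 5.82 and 10 fragments, 1747 bp from a knockout peak. Cma1, a chymase gene, had one 2 bp inside its start (chr14:55944531-55944673) with 5.17, a fold of 5.88 and 9 fragments, 5999 bp from a knockout peak. Of these 3 genes, Cpa3 had a knockout peak in its body or within 1 kb and Fcer1a and Cma1 had none. The mast cell and blood transcription factor genes had no wild-type-only, 1 knockout-only and 12 shared regions at their ends. That is 0 of 13, with an interval of up to 24.7% that also includes 13.0%.

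Signalling genes downstream of the IgE receptor and Kit had 4 wild-type-only, 4 knockout-only and 13 shared gene-end regions, a wild-type-only share of 19.0% (5.45 to 41.9) whose interval includes the 13.0% of all genes. The 4 were at Vav1, which encodes an exchange factor for small GTPases (−log10 q 6.50, 9 fragments), Ptpn11, which encodes the phosphatase SHP2 (5.30, 6 fragments), Lcp2, which encodes the adaptor SLP-76 (4.96, 9 fragments), and Plcg2, which encodes a phospholipase C (4.53, 6 fragments). Those of Vav1 and Ptpn11 covered the start and those of Lcp2 and Plcg2 lay 123 and 333 bp inside it. The nearest knockout peaks were 11193, 7006, 11214 and 16547 bp away in that order, so none of the 4 lay beside a knockout peak. Vav1, Lcp2 and Plcg2 did have a knockout peak in the gene or within 1 kb of it, and Ptpn11 had none. Granule release genes had 3 wild-type-only, 4 knockout-only and 9 shared regions (18.8%, 4.05 to 45.6, again including 13.0%). Nsf, the ATPase that takes SNARE complexes apart, had 5.20 just outside its start, and the regions of Stx7 (8.14) and Stxbp3 (3.27) lay 33 and 260 bp from a knockout peak.

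Cytokine and chemokine genes had 2 wild-type-only regions, at Csf1 and at Vegfa (5.22, over the start and 1250 bp from a knockout peak), with 5 knockout-only and 5 shared ones (16.7% wild-type-only, 2.09 to 48.4). Inflammatory transcription factor genes had 6 wild-type-only, 7 knockout-only and 14 shared regions (22.2% wild-type-only, 8.62 to 42.3). Both intervals include 13.0%. Fos, an AP-1 subunit gene, had a region over its start at chr12:85473809-85473919 (7.48, 9 fragments, 12116 bp from a knockout peak). Nr4a3, an orphan nuclear receptor gene induced by stimulation, had one over the start-side end of its gene interval (7.24, 13 fragments, 1519 bp). Atf3, a stress-induced factor gene, had one 112 bp outside (5.54, 10375 bp). Nfkbie, which encodes an NF-κB inhibitor, had one 982 bp outside (5.56), but also a shared region over the same start with 9.52 in the knockout and 5.62 in the wild-type list.

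Cell cycle genes had 7 wild-type-only, 6 knockout-only and 25 shared gene-end regions (18.4% wild-type-only, 7.74 to 34.3). This interval and those of the other 2 lists in this group, DNA repair and housekeeping genes, include 13.0%. Mycn, a proto-oncogene of the Myc family, had one 670 bp before its start (8.49, 11 fragments), 164734 bp from the nearest knockout peak. Rb1, the retinoblastoma gene, had one over a gene end (7.11, 13585 bp). Those of Pcna, Cdkn1b (5.62) and Cdkn2c (5.52 and 4.35) lay within 348 bp of a knockout peak, and each of the 3 genes had a shared region at the same end. Cdkn1b and Cdkn2c encode cyclin-dependent kinase inhibitors. DNA repair genes had 6 wild-type-only, 2 knockout-only and 29 shared regions (16.2%, 6.19 to 32.0), led by Ung and Chek1, followed by Xrcc2 (5.88) and Trp53 (5.38, 871 bp outside). Housekeeping genes had 4, 1 and 15 (interval 5.73 to 43.7%), with Eef1a1, the elongation factor gene, holding a wild-type-only region of 8.78 inside, a knockout-only region of 5.85 over its start and a shared region just outside.

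Genes of DNA methylation enzymes had no wild-type-only, 1 knockout-only and 14 shared regions at their ends (0 of 15, interval up to 21.8%). Histone modifying enzyme genes had 2, 9 and 33, the 2 being at Hdac3 and Nsd3. Lysosome and autophagy genes had 3, 12 and 24, the 3 being Ctsd, Npc1 and Ctsz. Respiratory complex I genes had 1, 6 and 32, the 1 being Ndufa3 (6.40). The intervals of these shares all include 13.0%, the lists being short: 15.5% is the upper bound for histone modifying enzymes, 20.9% for lysosome and autophagy and 13.5% for complex I.

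Of the gene families listed, zinc finger Zfp and solute carrier genes gave the narrowest intervals. Zinc finger Zfp genes, a family of mostly DNA-binding repressors, had 41 wild-type-only, 41 knockout-only and 139 shared regions, a wild-type-only share of 18.6% (13.7 to 24.3) whose interval lies above 13.0%. Their strongest were at Zfp703 (10.8), Zfp282 (10.4), Zfp623 (9.94) and Zfp160 (9.79), at 46554, 41774, 40584 and 63380 bp from a knockout peak in that order. Splicing factor genes had 12, 13 and 59 (14.3%), led by Prpf38b (11.7) and Prpf18 (9.60). Solute carrier genes had 20, 34 and 106 (12.5%), translation initiation factor genes 8, 9 and 43 (13.3%), led by Eif3d (10.6), and proteasome genes 6, 5 and 20 (19.4%, 7.45 to 37.5), led by Psmd13 (8.10). Cytosolic ribosomal protein genes had 7, 18 and 56 (8.64%, 3.55 to 17.0), led by Rps10 (9.41), and mitochondrial ones 7, 15 and 51 (9.59%, 3.94 to 18.8), led by Mrps36 (10.9). With 33 lists described, 1 interval of 95% that misses the share of all genes is no test of that list.

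**Figure D5:**
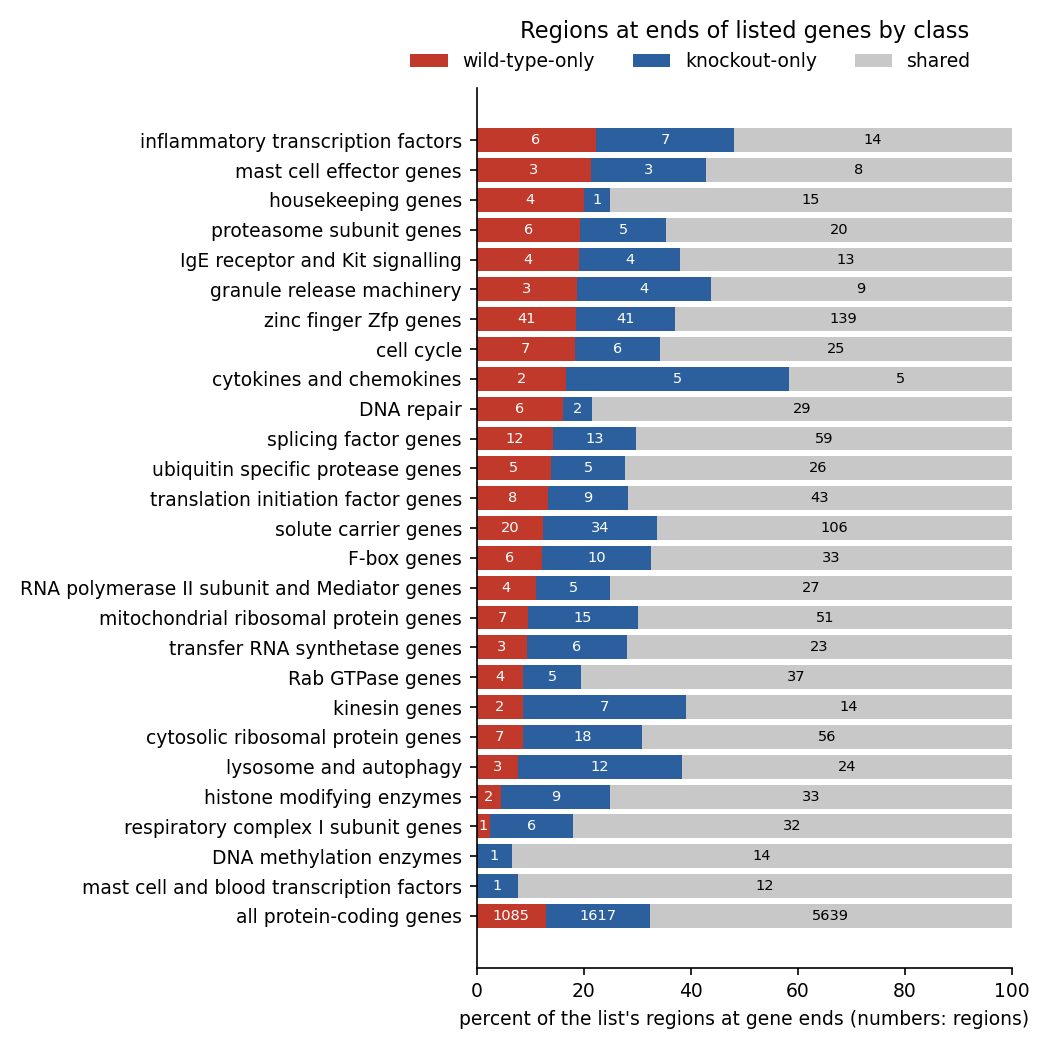
Gene-end regions by class for each gene list with at least 12 of them, as a percent of the list's regions (x axis). The number of regions is printed in each bar, and all protein-coding genes are in the lowest row. Lists with fewer regions, such as erythroid and megakaryocyte genes, are not drawn. Wild-type-only regions (left part of each bar) make up 22.2% at inflammatory transcription factor genes and 21.4% at mast cell effector genes, 13.0% over all genes, and 0 at DNA methylation enzyme genes and at mast cell and blood transcription factor genes.

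Lists of other cell types held few gene-end regions of any class. Neutrophil and monocyte genes had 0 wild-type-only of 3 (interval up to 70.8%), lymphocyte genes 0 of 2 (up to 84.2%) and basophil genes 0 of 3 (up to 70.8%), and neuron and liver genes had no gene-end region. These numbers are too small to be told from 13.0%. Erythroid and megakaryocyte genes had 2, at Hbb-bt, a beta globin gene (7.28, beyond its transcript end and beside a shared region), and at Gp5, a platelet glycoprotein gene (5.64, near its transcript end), with no knockout-only and 4 shared ones (33.3% wild-type-only, 4.33 to 77.7). Olfactory receptor genes had 1 wild-type-only region of 6, at Olfr520 (5.20), a share of 16.7% (0.421 to 64.1). Both intervals include the 13.0% of all genes.

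The promoters behind the members were mostly CpG-rich, as were those of the other classes with a region. Of 21045 promoter windows of 300 bases, from 17274 coding genes, 646 met a wild-type-only region and no other, 1009 a knockout-only region and no other, 5305 a shared region and 14050 none, and 35 met both unshared kinds. The 506 members that touched a window are 46.6% of all. The median ratio of observed to expected CpG was 0.802, 0.800 and 0.822 in the windows with a wild-type-only, knockout-only and shared region, and 0.340 in those with none. A ratio of at least 0.6, as in a CpG island, was found in 79.1% (75.8 to 82.2), 78.5% (75.8 to 81.0), 86.3% (85.3 to 87.2) and 30.0% (29.3 to 30.8). Windows of members and of knockout-only regions did not differ beyond their intervals. Those of the 3 mast cell genes printed above, at 0.0700 to 0.213, were thus among the minority of CpG-poor member windows.

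Words of transcription factor sites were counted on both strands, and none of the words contains another. The GC box GGGCGG stood in 63.0% (59.2 to 66.7) of windows with a wild-type-only region, 69.4% (66.4 to 72.2) of those with a knockout-only region and 74.8% (73.6 to 75.9) of those with a shared one, and in 46.7% of all windows. CCGGAA, the core bound by ETS factors, stood in 34.1%, 31.6% and 36.4%, and in 18.9% of all. CCAAT, the box bound by NF-Y, stood in 29.7% (26.2 to 33.4), 34.2% (31.3 to 37.2) and 48.1% (46.7 to 49.4), and in 38.5% of all windows. The CCAAT share was thus lower in windows of members than in those of shared regions and than in the 35.6% of windows with no region. At like strength, −log10 q 5.0 to 7.40, it was 28.0% (23.1 to 33.3) and 36.8% (33.5 to 40.1) in member and shared windows. Among windows with a CpG ratio of at least 0.6, with regions of any strength, it was 27.0% (23.2 to 31.1) and 47.8% (46.4 to 49.3).

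The words of mast cell and blood factors did not all go one way against all windows. AGATAA stood in 6.81% (4.99 to 9.04) of windows with a wild-type-only region, 6.05% with a knockout-only region and 4.54% with a shared one, and in 9.68% of all windows. TGTGGT, the core bound by RUNX factors, stood in 11.5%, 12.2% and 11.6%, and in 14.7% of all. CACGTG, the E-box bound by MITF and related factors, stood in 11.3% (8.96 to 14.0) of windows with a wild-type-only region and 11.2% (10.4 to 12.1) of those with a shared one, and in 7.91% of all. GAGGAAGT, a word bound by PU.1, stood in 3.56% (2.27 to 5.29), 2.28% and 3.24% (2.78 to 3.75) of windows with a wild-type-only, knockout-only and shared region, and in 3.15% of all. For each of these 4 words the intervals of member and knockout-only windows overlapped. TATAAA stood in 8.20% (6.21 to 10.6), 6.44% and 4.84% (4.28 to 5.46), and in 12.7% of all, so that it was more frequent in member windows than in shared ones. Windows overlap where a gene has several starts, so they are not independent of one another.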

How the data were processed

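Open chromatin was measured by ATAC-seq in 1 Dnmt3a knockout and 1 wild-type mast cell library. The submitters' processing notes name Trimmomatic, Bowtie2 and MACS2, and as builds mm10 and GRCm38. Their versions and parameters, and whether reads were moved to the Tn5 cut site, which would change peak edges by a few bases, are not given in the sources used. The authors deposited 1 peak list per library with a score, a fold enrichment, a −log10 p-value, a −log10 q-value and a summit offset for each peak. In 100% of peaks the deposited score equalled 10 times the −log10 q, rounded down to a whole number. These values are the authors' own and describe or rank peaks within a list. The fold and −log10 p gave a whole summit pileup for 100% of peaks (tolerance 0.001 in −log10 p).

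Regions were merged and classed as described with SciPy 1.17.1, pandas 2.3.3 and NumPy 2.4.6 in Python 3.11.15, and drawn with matplotlib 3.10.9. Gene intervals and promoter sequences came from RefSeq tables of GRCm38.p6, with 21631 protein-coding genes and a strand for 79.9% of them. No region was filtered out for low strength. With 1 library per genotype no test was made, and shares have exact binomial 95% intervals. The steps were tested on simulated data. The regions and the gene lists were chosen with earlier results of these data known. Genes named are the 10 strongest members, genes with 2 members, up to 4 members per list, those farthest from and nearest to a knockout peak, those at the 1 kb limit, Dnmt3a and Fcer1a. The 3 weakest members and the genes of the runs were added after their values were seen, and not all genes that the rule names are printed. Alternatives varied the gene-end distance, gene types, peak limits, list lengths, overlap, merging gap and chromosome X.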

Additional observations from a re-analysis of the deposited data

How the results depend on the processing

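No paired analysis was possible because there was 1 library of each genotype. The 1085 regions became 1792 with a reciprocal overlap of 50%, and 734 to 1350 under the other settings. The wild-type-only share of gene-end regions, 13.0%, was 12.2% with gene ends of 500 bp, 13.9% with 2.5 kb, 12.1% when both lists were limited to a −log10 q of 5 or more, 10.1% when the wild-type list alone was, 16.6% with equal numbers of peaks, 19.6% with the reciprocal overlap and 9.91% with intervals merged within 500 bp. The share of wild-type-only regions that lie at gene ends, 27.5%, was 23.3% at 500 bp, 34.2% at 2.5 kb, 32.9% for all gene types, 31.6% with the reciprocal overlap and 22.7% with merging. The number of knockout-only regions per wild-type-only one, 1.49, reversed to 0.923 with equal numbers, which shortens the knockout list, and was 1.66 and 2.30 under these limits, 1.27 with the reciprocal overlap and 1.67 with merging. A knockout peak within 1 kb, 33.9%, was found for 30.7% at 2.5 kb, 30.6% when both lists were limited, 28.9% at equal numbers and 60.0% with the reciprocal overlap. Start-side gene ends, 93.8%, were 96.5% at 500 bp, 86.7% at 2.5 kb and 91.0% for all gene types. The median −log10 q was 6.65 and 6.60 under the limits and 6.33 with the reciprocal overlap, and the median pileup was 8 in each of these cases. Leaving out chromosome X moved none of these. Taking summits within 200 bp as shared moved none of those it was run for, which leaves out the neighbour and start-side shares. Of 320 values of gene lists, 312 stayed within their interval. List lengths, limits, distances, the overlap rule and merging change by construction which regions count. A wild-type peak that overlapped a knockout peak too little for the reciprocal rule counted as wild-type-only, with a knockout peak within 1 kb. Beyond this, what moved the values was not tested. CpG content and words around the summit were not run for want of a genome sequence, and the neighbour share was not run for the merging setting either. The start-side share was run only for the distances, gene types and chromosome X.

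Called peaks are all that the lists hold, so that reads below the calling limit in the knockout library are not seen. At a median of 7 fragments per summit, a region can pass or miss the limit by a few fragments.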
